A study of Mus musculus with 8 samples.

Results

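The genes described here encode nucleolar factors that assemble the ribosome. They were taken as 35 named genes around Utp18, a subunit of the small-subunit processome, and 34 of them had a probe set of their own among the 19938 genes measured in mouse muscle. Noc2l was the gene without one. Each gene was read from the probe set annotated with its symbol alone, and from the brighter of a pair for Fbl and Wdr12. Utp18 was chosen because it was among the 13 genes past the threshold between genotypes in these same samples. Its difference is therefore given as a description with no test. The 33 others were chosen by function, with earlier results of these data known.

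Gene expression was measured on Affymetrix arrays in gastrocnemius, a calf muscle. There were 4 samples of mice lacking the histone deacetylase HDAC5 (the genotype label spells this group HADAC5 KO) and 4 samples of wild type littermates (HDAC5 WT). The mice, of a published knockout line, were 30 weeks old, ate a low-fat chow and were otherwise untreated. Arrays were run from 150 ng of RNA whose integrity number exceeded 8. The submitters asked what part HDAC5, a repressor of MEF2-dependent transcription, plays in the regulation of interleukin 6. The sources used here do not say which part of Hdac5 was deleted, in which cells, or whether each sample came from a different animal. The p-values therefore reflect only how these samples vary, which may be technical. Values are log2 signals, and differences are knockout minus wild type on that scale.

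Ribosome production starts in the nucleolus, where RNA polymerase I makes a long precursor that is folded, cut and chemically modified while ribosomal proteins join it. The early precursor of the small subunit is held in the small-subunit processome, which is built from the UTP-A, UTP-B and MPP10 complexes and the U3 small nucleolar ribonucleoprotein. The large subunit matures along a separate path that needs, among others, the PeBoW complex. In muscle, this machinery is known for its rise during growth after loading.

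The targeted gene was lower in every sample labelled knockout. Hdac5 was 8.31 to 8.39 in the knockout samples and 9.76 to 9.94 in the wild type samples, so that the knockout signal was 0.354 times the wild type signal (95% interval 0.324 to 0.387, limma adjusted p = 1.74e-07, exact 2-sided permutation p = 0.0286, the smallest that 4 against 4 samples can give). All 12 listed genes of muscle fibres were measured, and their mean per sample was 14.01 to 14.15 in knockout and 14.15 to 14.20 in wild type muscle. The largest part of that shift came from the slow myosin gene Myh7 (-0.76), and the next largest difference was that of Ttn (-0.07). Arrays correlated with each other at 0.988 to 0.995 and no pair was identical. Over all genes, 13 of 19938 (0.0652%) had a limma adjusted p under 0.05, 0.0401% higher and 0.0251% lower in knockout muscle, a number that ran from 5 to 20 with 1 sample left out.

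Utp18 was the nucleolar factor with the widest gap between the genotypes, and its partners in the UTP-B complex differed by at most 0.08. UTP-B binds the leading end of the ribosomal RNA precursor and the U3 RNA, and Utp18 is one of its WD-repeat subunits. The Utp18 signal was 9.93, 9.42, 9.17 and 9.22 in knockout samples 1 to 4. It was 8.56, 8.44, 8.59 and 8.28 in wild type samples 1 to 4. Every knockout sample lay above every wild type sample, with 0.58 between the nearest pair, and knockout sample 1 stood above the other knockouts. The knockout mean was 9.43 ± 0.35 (SD, n = 4) and the wild type mean 8.47 ± 0.14 (SD, n = 4), which differ by 0.97 (SE 0.143). The knockout signal was 1.95 times the wild type signal (95% interval 1.57 to 2.43). The SE and the interval take no account of Utp18 having been chosen for its difference, so they are no test of it. A gene chosen in this way tends to show too large a difference. Only 6 of the 19938 genes had a larger difference in size. The difference was 0.80 without knockout sample 1, and the threshold that brought Utp18 in was missed without knockout sample 2 or without any 1 wild type sample. In a tissue of several cell types, a change in the number of cells of a type cannot be told apart from a change in RNA per cell.

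The sequence between the start of Utp18 and the start of its neighbour Mbtd1 is shown because the pair is transcribed away from each other from starts 84 bases apart, so that 83 bases lie between them. A second annotated Mbtd1 start lies 405 bases from the Utp18 start, and the stretch shown ends at the nearer one. Mbtd1 encodes a chromatin reader of a histone acetyltransferase complex. In the RefSeq promoters of build GRCm38.p6, this stretch is at chr11:93885767-93885849 and is printed on the minus strand, toward Utp18, with the E-box CACGTG in capitals.
Utp18: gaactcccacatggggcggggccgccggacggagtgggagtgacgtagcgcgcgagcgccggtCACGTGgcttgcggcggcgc
The E-box, a sequence that MYC and related factors bind, begins at position -20, where -1 is the last base before the Utp18 start, and a GC box GGGCGG begins at -70. The ETS core CCGGAAG, bound by factors of the ETS family, begins at -106, outside the stretch shown.

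The Mbtd1 signal was 9.64, 9.61, 9.40 and 9.57 in knockout samples 1 to 4 and 9.44, 9.38, 9.41 and 9.40 in wild type samples 1 to 4. Knockout sample 3 lay within the wild type range and the other 3 above it. The difference was 0.15 (SE 0.063, 95% interval 0.01 to 0.29, limma adjusted p = 0.590).

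The E-box also stood before Nop2, Nol11 and Imp4, whose last 150 bases before the start are shown to set them beside Utp18, with the E-box and the ETS core in capitals. Nop2 is a methyltransferase of large-subunit ribosomal RNA, Nol11 a UTP-A subunit, and Imp4 a protein of the MPP10 complex. The stretches are chr6:125131733-125131882 on the plus strand, chr11:107189382-107189531 on the minus strand and chr1:34439679-34439828 on the plus strand, in that order, in the same build.
Nop2: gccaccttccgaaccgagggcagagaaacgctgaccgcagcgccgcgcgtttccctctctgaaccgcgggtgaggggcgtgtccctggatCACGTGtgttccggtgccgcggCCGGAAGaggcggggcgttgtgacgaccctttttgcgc
Nol11: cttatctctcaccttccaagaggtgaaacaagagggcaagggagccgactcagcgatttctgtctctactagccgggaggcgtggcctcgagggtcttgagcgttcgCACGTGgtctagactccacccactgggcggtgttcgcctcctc
Imp4: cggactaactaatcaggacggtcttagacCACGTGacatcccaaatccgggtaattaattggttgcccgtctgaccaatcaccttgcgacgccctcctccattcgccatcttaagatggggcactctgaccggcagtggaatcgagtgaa
These E-boxes begin at -60, -43 and -121. Nop2 carried both the E-box and the ETS core, as Utp18 did. The signals of these genes differed between genotypes by 0.0063 for Nop2, 0.06 for Nol11 and 0.09 for Imp4, with intervals that all included 0.

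Motifs were counted on both strands in the 250 bases before each start. RefSeq windows were matched for 27 of the 35 genes, 30 windows in all, and set beside all 32851 windows of the table. The E-box was in 4 of the 30 windows (13.3%, against 6.02% of all) and the ETS core CCGGAAG in 7 (23.3%, against 6.91%). The GC box GGGCGG was in 19 (63.3%, against 32.7%), CCAAT in 12 (40.0%, against 33.8%) and TATAAA in 2 (6.67%, against 12.4%). The windows of these genes were also richer in G and C, at a median of 59.8% against 52.4%. The MEF2 consensus, searched because HDAC5 is known to act through MEF2, was in 0 of the 30 windows and in 2.92% of all. That motif is rich in A and T and rare in all windows, so 0 of 30 windows is too few to read a depletion from. Utp18 was the single gene of the 27 with all 4 of the E-box, ETS core, GC box and CCAAT, an observation made after the motifs had been seen. Its ETS core and its CCAAT, which begins at -176, lie beyond the nearer Mbtd1 start.

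The other 5 UTP-B subunits differed by 0.04 to 0.08, all slightly higher in knockout muscle, and 0 of the 5 passed in limma, at the adjusted or the unadjusted p of 0.05. Pwp2, a WD-repeat scaffold of the complex, was 8.94, 8.98, 8.88 and 8.75 in knockout samples 1 to 4 and 8.88, 8.85, 8.78 and 8.73 in wild type samples 1 to 4. The ranges overlapped, with 3 knockout samples just above the wild type range. The difference was 0.08 (SE 0.066, 95% interval -0.06 to 0.23). Wdr36, another WD-repeat subunit, differed by 0.06 (SE 0.077), with wild type sample 3 at 10.37 above every knockout sample. Utp6, which links subunits by its repeats, and the WD-repeat proteins Tbl3 and Wdr3 each differed by 0.04. The highest upper bound of the 5 intervals was 0.23.

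**Figure D1:**
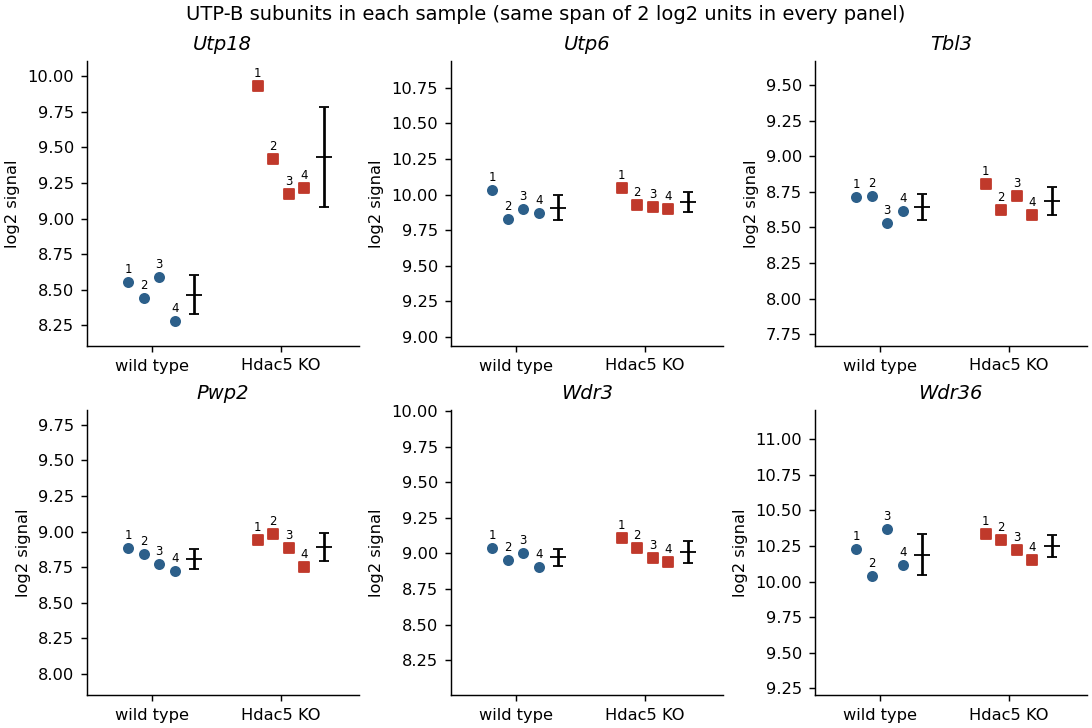
Log2 signal (vertical axis, the same span in each panel) of the 6 UTP-B genes in the 4 wild type samples (blue circles) and the 4 Hdac5 knockout samples (red squares), numbered by sample, with the mean and SD as a black bar. Utp18 is separated by 0.58 between its nearest samples, while the genotypes overlap for Utp6, Tbl3, Pwp2, Wdr3 and Wdr36.

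Among the 33 nucleolar factors other than Utp18, 0 passed a limma adjusted p of 0.05, where 0.0652% of all genes did, and the adjusted p-values ran from 0.392 to 0.993. At an unadjusted p under 0.05 in limma there were 4 of 33 (12.1%), where 7.90% of all genes were. Dcaf13 and Heatr1 were higher, against 4.72% of all genes, and Imp3 and Nop56 lower, against 3.18%. The number at an unadjusted p under 0.05 was 1 when knockout sample 3 was left out and 2 when wild type sample 3 was left out. The genotypes did not overlap for 2 of the 33, both higher, where this held for 4.90% of all genes, 2.91% higher and 1.99% lower. All 33 intervals lay within 0.5 on either side of 0, from a lowest bound of -0.37 (0.773-fold) to a highest of 0.39 (1.31-fold). The precision was similar throughout, with intervals reaching 0.12 to 0.21 on each side of the difference. All 34 measured genes lay above the lowest quartile of gene signals, so none was near the floor of the arrays by that measure.

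**Figure D2:**
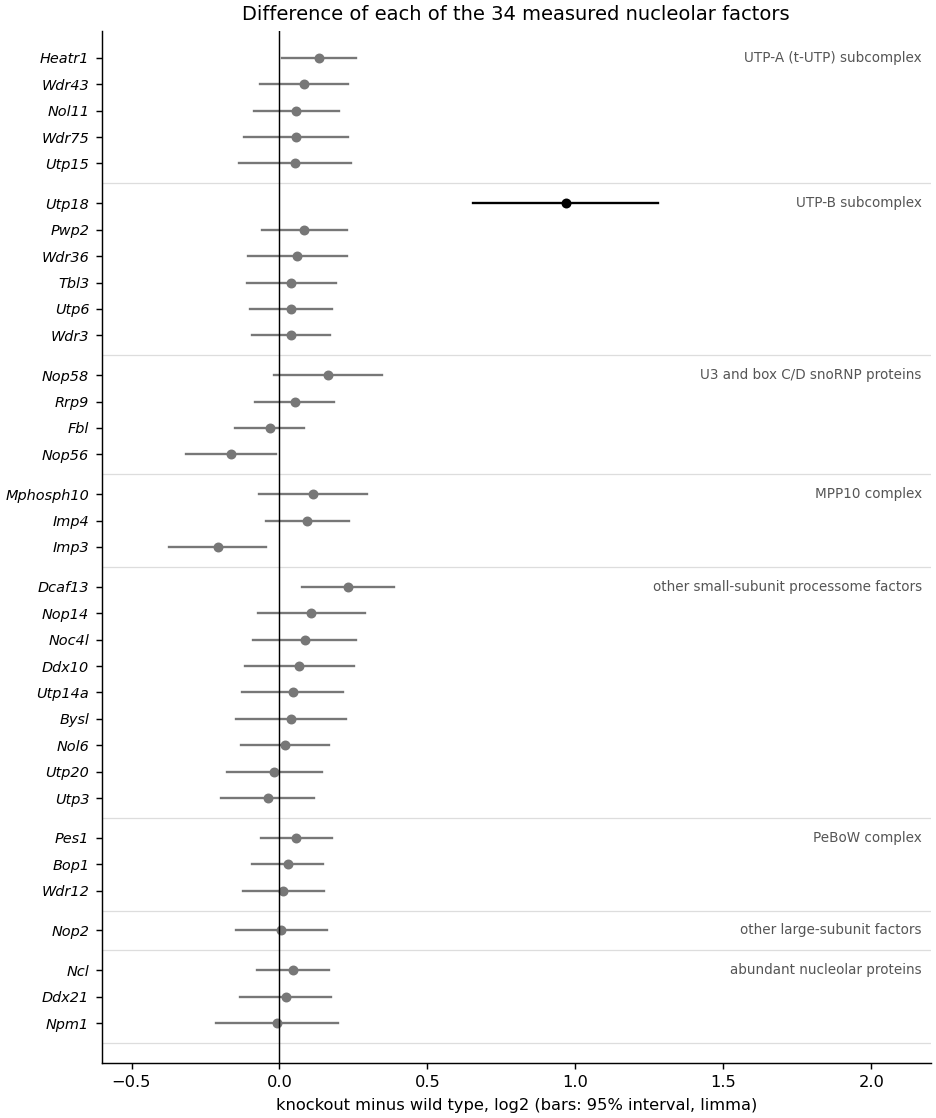
Difference between knockout and wild type muscle (horizontal axis, log2) for the 34 measured nucleolar factors, as points with 95% intervals from limma, grouped by complex. Utp18, in black, lies at 0.97, and the 33 others lie between -0.21 and 0.23.

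The UTP-A complex, which is tied to transcription of the ribosomal RNA genes, had 5 members measured and all 5 means were higher in knockout muscle, by 0.05 to 0.13. Heatr1, its large helical repeat subunit, was 9.51, 9.52, 9.49 and 9.44 in knockout samples 1 to 4. It was 9.40, 9.40, 9.37 and 9.26 in wild type samples 1 to 4. The genotypes did not overlap. The difference was 0.13 (SE 0.057, limma adjusted p = 0.590). Wdr43 differed by 0.08 (SE 0.068), Nol11 and Wdr75 by 0.06 each and Utp15 by 0.05, with overlapping samples. The signs of Wdr75 and Utp15 turned with knockout sample 1 and wild type sample 4 both left out (-0.03 and -0.06). Over the nucleolar factors, those samples were most often the highest and the lowest, so leaving them out tends to lower a difference.

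The proteins of the U3 and box C/D ribonucleoproteins went both ways. Nop56 and Nop58 are the paired core proteins of these particles, and their differences had opposite signs. Nop56 was 10.85, 10.74, 10.63 and 10.57 in knockout samples 1 to 4 and 10.93, 10.78, 10.89 and 10.83 in wild type samples 1 to 4. Of the knockout samples, 3 lay below the wild type range and knockout sample 1 lay inside it. The difference was -0.16 (SE 0.070, limma adjusted p = 0.590). Nop58 was 10.11, 10.11, 9.87 and 9.82 in knockout samples 1 to 4 and 9.96, 9.74, 9.84 and 9.71 in wild type samples 1 to 4. Knockout samples 1 and 2 were the highest of the 8 and the other knockouts lay within the wild type range. The difference was 0.16 (SE 0.084, limma adjusted p = 0.682). The test of the difference between Nop56 and Nop58 was not run. Fbl, the methyltransferase of these particles, differed by -0.03 on its brighter probe set and by -0.04 on the other. Rrp9, which is specific to U3, differed by 0.05.

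In the MPP10 complex, which brings U3 to the precursor, the signs were mixed. Imp3 was 10.21, 10.06, 9.97 and 10.001 in knockout samples 1 to 4. It was 10.38, 10.26, 10.32 and 10.12 in wild type samples 1 to 4. Knockout sample 1 alone reached into the wild type range. The difference was -0.21 (SE 0.075, 95% interval -0.37 to -0.04, limma adjusted p = 0.469). Imp4 differed by 0.09 (SE 0.065), and Mphosph10, the scaffold of the complex, by 0.11 (SE 0.084). For Mphosph10, knockout samples 1 and 2 (9.71 and 9.78) lay above all wild type samples (9.42 to 9.54) and knockout samples 3 and 4 (9.44 and 9.42) lay at their lower end.

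Of the 9 other factors of the small-subunit processome, Dcaf13 had the largest difference. Dcaf13 is a WD-repeat protein that also serves as a substrate receptor of a CUL4 ubiquitin ligase. It was 9.69, 9.63, 9.48 and 9.59 in knockout samples 1 to 4. It was 9.46, 9.38, 9.43 and 9.20 in wild type samples 1 to 4. Every knockout sample lay above every wild type sample, by a narrow margin for knockout sample 3. The difference was 0.23 (SE 0.072, 95% interval 0.08 to 0.39, limma adjusted p = 0.392).

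The remaining 8 of that group had overlapping samples. Nop14, which with Noc4l and Emg1 acts at the head of the forming small subunit, differed by 0.11 (SE 0.083) and Noc4l by 0.08 (SE 0.080). The helicase Ddx10 differed by 0.07, Utp14a, which activates another helicase, by 0.04, Bysl, which stays with the particle until late, by 0.04 and Nol6 by 0.02. Utp3 and the large scaffold Utp20 differed by -0.04 and -0.02. Differences of this size are within the error. The signs of Utp14a, Nol6, Noc4l, Bysl and Ddx10 turned with knockout sample 1 and wild type sample 4 both left out. Those samples were most often the highest and the lowest for the nucleolar factors, so leaving both out tends to lower a difference. With quantile normalization the sign of Nol6 also turned.

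**Figure D3:**
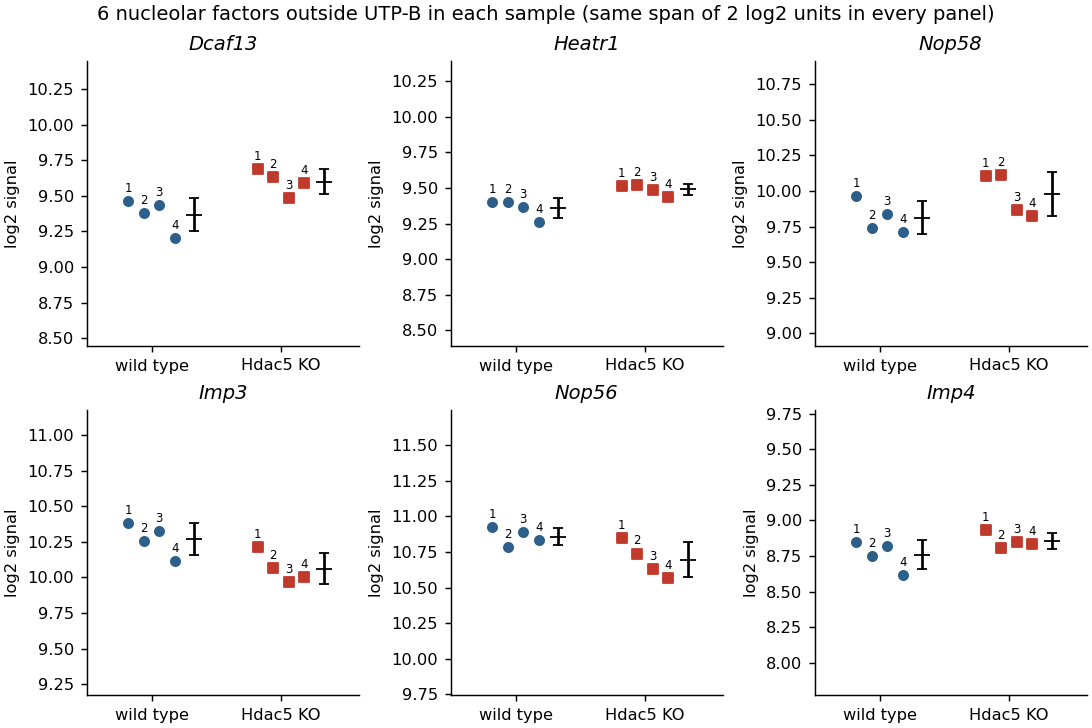
Log2 signal (vertical axis, the same span in each panel) of the 6 nucleolar factors outside UTP-B with the smallest p-values, in 4 wild type samples (blue circles) and 4 Hdac5 knockout samples (red squares), numbered by sample, with the mean and SD as a black bar. Dcaf13 and Heatr1 are higher in every knockout sample by small margins, and the genotypes overlap for Nop58, Imp3, Nop56 and Imp4.

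Factors of the large subunit and the abundant nucleolar proteins differed by -0.0088 to 0.06. Pes1, Bop1 and Wdr12 form PeBoW, which is needed to cut the spacer next to large-subunit RNA, and they differed by 0.06, 0.03 and 0.01, the last with a sign that turned on its dimmer probe set (-0.04). Nop2 differed by 0.0063 (SE 0.070). Ncl, or nucleolin, was 11.88 to 12.05 in knockout and 11.92 to 11.94 in wild type samples. Its wild type samples were nearly alike, and the knockouts lay on both sides of them. The difference was 0.05 (SE 0.056). Npm1, a histone chaperone of the nucleolus, differed by -0.0088 (SE 0.095), and Ddx21, a helicase that acts in ribosomal RNA transcription and modification, by 0.02 (SE 0.071).

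The nucleolar factors were high or low together in single samples. With each gene set against its own mean over the 8 samples, 31 of the 33 factors other than Utp18 were above their mean in knockout sample 1, 25 in knockout sample 2 and 28 in wild type sample 1. In contrast, 12 were above it in knockout sample 3, 10 in knockout sample 4, 5 in wild type sample 2, 14 in wild type sample 3 and 4 in wild type sample 4. Samples of the same genotype thus lay on both sides. The median deviation ran from -0.05 to 0.11 among the knockout samples and from -0.08 to 0.05 among the wild type samples. Knockout sample 1 was the highest of the 8 samples for 14 of the 33 genes, and wild type sample 4 the lowest for 12. Over all genes the median deviation stayed between -0.01 and 0.02 in every sample.

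A slightly higher mean in knockout muscle was seen for 27 of the 33 genes, where 51.4% of all genes had one. The size of the shift depended on which samples were used. The median difference of the 33 was 0.05, against 0.0030 over all genes. Leaving out knockout sample 1 gave 0.0072, wild type sample 4 gave 0.029 and wild type sample 1 gave 0.080. With any 1 sample left out it stayed between 0.0072 and 0.080. It was -0.0054 with knockout sample 1 and wild type sample 4 both left out. Those samples stood highest and lowest on these genes, so leaving both out was bound to lower the median difference. With quantile normalization it was 0.023. For Utp18, given as a description, the deviation less the median of the 33 others was 0.87, 0.39, 0.25 and 0.32 in knockout samples 1 to 4 and -0.44, -0.48, -0.35 and -0.59 in wild type samples 1 to 4. Within each genotype, the sample with the highest or lowest Utp18 was partly the one where the other factors stood high or low: knockout sample 1 was the highest and wild type sample 4 the lowest on both.

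**Figure D4:**
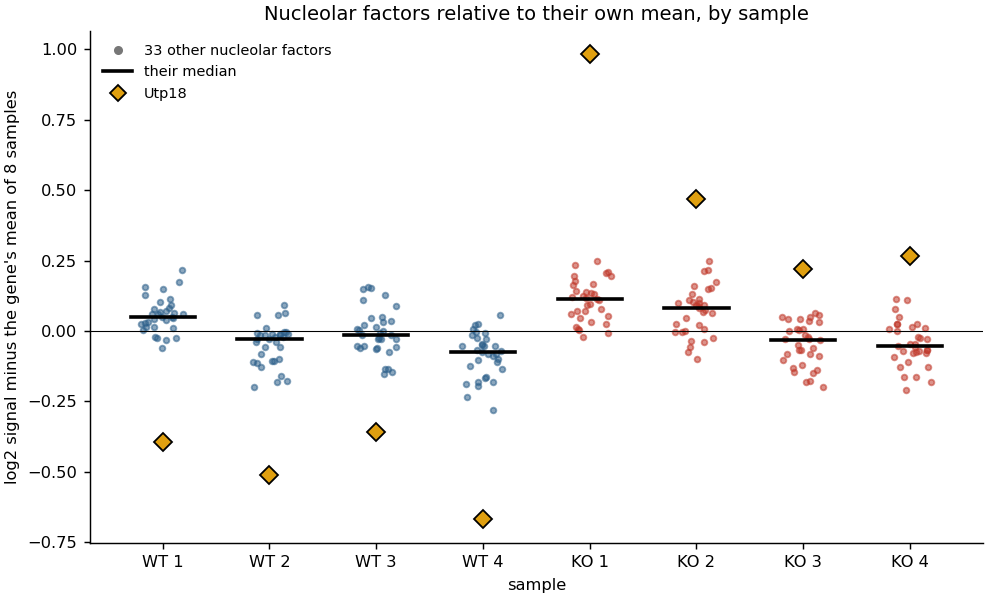
Log2 signal of each nucleolar factor minus its own mean over the 8 samples (vertical axis), by sample, for the 33 factors other than Utp18 (small points), their median (black line) and Utp18 (diamonds). The medians lie at 0.11 in knockout sample 1 and -0.08 in wild type sample 4, and the Utp18 diamonds lie above 0 in the 4 knockout samples and below 0 in the 4 wild type samples.

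The wider machinery of ribosome production was high and low in many of the same samples. Over 142 other genes in 6 lists, 120 were above their own mean in knockout sample 1 and 115 in wild type sample 1, but 24 in wild type sample 4 and 41 and 42 in knockout samples 4 and 3. In limma, 0 of the 142 passed the adjusted threshold. At an unadjusted p under 0.05 there were 3 higher and 2 lower (3.52%, against 7.90% of all genes). That count was 9 with quantile normalization. Leaving out knockout sample 2 gave 2, knockout sample 1 gave 3 and wild type sample 2 gave 3, while knockout sample 4 and wild type sample 1 each gave 10. The median difference of the 142 was 0.02. Among the 142, 3 were higher and 3 lower without overlap between genotypes. Of all genes, 2.91% were higher and 1.99% lower in that way.

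In the list of RNA polymerase I and its factors (18 genes measured), 2 were higher and 1 was lower at the unadjusted p in limma. That is 16.7%, against 7.90% of all genes (4.72% higher and 3.18% lower). Without overlap, 2 of the 18 were higher, neither of them Znrd1 or Twistnb, where 2.91% of all genes were. The polymerase subunit Znrd1 differed by -0.31 (SE 0.102, limma adjusted p = 0.448) and the subunit Twistnb by 0.23 (SE 0.081, limma adjusted p = 0.462). Znrd1 was 8.12 to 8.51 in knockout and 8.48 to 8.92 in wild type samples, with knockout sample 2 inside the wild type range. The next list (14 genes) held H/ACA ribonucleoproteins together with assembly factors of small nucleolar ribonucleoproteins in general. Znhit6 differed by 0.15 (SE 0.061) with no overlap between genotypes. Naf1, an assembly factor of H/ACA particles, differed by 0.19 (SE 0.098).

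The other small-subunit factors (37 genes) had 1 member past the unadjusted p in limma (2.7%, against 7.90% of all genes). That was the endonuclease Nob1, which makes the last cut of small-subunit RNA, lower at -0.13 (SE 0.061), with no overlap. Nol10 differed by 0.19 (SE 0.095). The other large-subunit factors (48 genes) had 0 past the unadjusted p in limma. The members with the smallest p were Eif6, which keeps the subunits apart until the large one is mature, at -0.10 (SE 0.052) with no overlap, and the helicase Ddx55 at 0.14 (SE 0.078). The RNA exosome, which trims precursor ends (13 genes), had 0, with its helicase Mtrex at 0.14 (SE 0.073) and Exosc3 at 0.14 (SE 0.092).

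The MYC network, known for driving transcription of ribosome assembly genes, also had 0 of 12 genes past the unadjusted p in limma. Myc itself was 8.63, 8.20, 8.41 and 8.06 in knockout samples 1 to 4 and 8.53, 8.48, 8.78 and 8.35 in wild type samples 1 to 4. The genotypes overlapped, with the lower mean in knockout muscle. The difference was -0.21 (SE 0.121, 95% interval -0.47 to 0.05, limma adjusted p = 0.728). Mga, a partner of MAX in the same network, differed by 0.12 (SE 0.067).

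Utp18 lies on chromosome 11, as Hdac5 does, with 263 tested genes between them in the RefSeq gene order of GRCm38.p6. None of the 263 passed the adjusted threshold in limma, and 19 (7.22%) had an unadjusted p under 0.05, 7 higher and 12 lower, where 7.90% of all genes did. Among the 10 tested genes on each side of Utp18, 0 passed the adjusted threshold and 2 the unadjusted one, 1 in each direction. The nearest genes were Car10, a carbonic anhydrase-related protein, at -0.06 on one side and Mbtd1 at 0.15 on the other. Car10 and Kif2b were in the lowest quartile of gene signals. Next came Kif2b, a kinesin, at -0.0017, and Nme2, a nucleoside diphosphate kinase, at -0.12. Tom1l1 and Cox11 differed by -0.11 and -0.07, Stxbp4 by 0.17, Nme1 by -0.07, and Spag9 and Tob1 by 0.04 each. All 10 adjusted p-values were 0.590 or more.

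**Figure D5:**
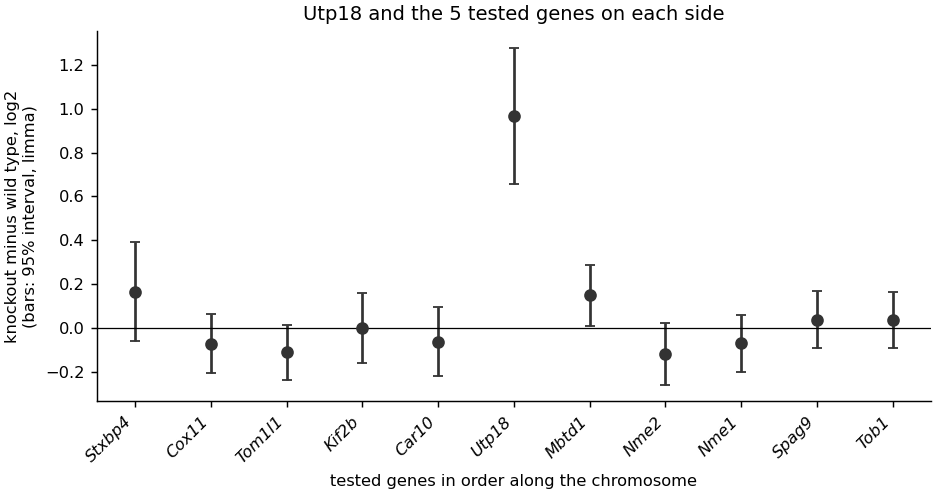
Difference between knockout and wild type muscle (vertical axis, log2, with 95% intervals from limma) for Utp18 and the 5 tested genes on each side, in their order along the chromosome (horizontal axis). Utp18 lies at 0.97 and the 10 neighbours lie between -0.12 and 0.17.

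The chromosome holds 4 more of the measured nucleolar factors. Nol11, with 86 tested genes between it and Hdac5, is nearer to Hdac5 than Utp18 is, and differed by 0.06 (SE 0.065). Utp6 lies beyond Utp18, with 408 tested genes between it and Hdac5, and differed by 0.04. Npm1 and Pes1 are farther, with 1051 and 1224 tested genes between, and differed by -0.0088 and 0.06. Of the 1564 other tested genes of the chromosome, 1 passed the adjusted threshold in limma, where 0.0652% of all genes did. At an unadjusted p under 0.05 in limma there were 7.54%, against 7.90% of all genes. The gene past the adjusted threshold was Abca5, a lipid transporter of the ABC family. Abca5 was 10.57 to 10.81 in knockout and 10.04 to 10.29 in wild type samples. The part of the shared chromosome in the Utp18 difference was not tested.

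Markers of other cells of the muscle were set beside Utp18. Over all genes, 4.72% were higher and 3.18% lower at an unadjusted p under 0.05 in limma, and 0.0652% passed the adjusted threshold. The mean was higher in knockout muscle for 51.4% of all genes, and 2.91% were higher and 1.99% lower without overlap. Of 10 macrophage markers, 7 were higher in knockout muscle at an unadjusted p under 0.05 in limma, 0 at the adjusted one and 2 without overlap. Their mean per sample was 8.55 to 8.90 in knockout and 8.27 to 8.62 in wild type samples. In knockout samples 1 to 4 it was 8.80, 8.55, 8.90 and 8.62, beside Utp18 signals of 9.93, 9.42, 9.17 and 9.22. In wild type samples 1 to 4 it was 8.35, 8.62, 8.39 and 8.27, beside Utp18 signals of 8.56, 8.44, 8.59 and 8.28. Of 8 fibroblast markers, 4 were higher at the unadjusted p and 0 at the adjusted one, with means of 10.38 to 10.80 and 10.27 to 10.59, highest in knockout sample 3 (10.80) and next in knockout sample 1 (10.62). Of the 12 muscle fibre genes, all 12 had the lower mean in knockout muscle, 3 without overlap between genotypes, and 1 was lower at the unadjusted p and 0 at the adjusted one. That gene was Myh7, the slow myosin heavy chain, at -0.76 (SE 0.199), chosen after its values were seen. The other fibre genes differed by -0.07 (Ttn) to -0.0063 (Myh1). Their wild type means were 13.84 (Myh2) to 14.64 (Acta1), against 12.48 for Myh7. Whether the arrays resolve differences at such high signals was not tested. Of 8 listed markers of dividing cells 7 were measured. All 7 had the higher mean in knockout muscle, and 0 passed either threshold in limma, with means of 7.46 to 7.62 and 7.41 to 7.48. Mki67, Top2a and Birc5 of this list were in the lowest quartile of gene signals. Of 7 satellite cell markers, 1 (Myf5) was lower at the unadjusted p and without overlap, with means of 8.56 to 8.70 and 8.58 to 8.69. Of 7 endothelial markers 0 passed either threshold, with means of 10.19 to 10.52 and 10.23 to 10.41. The genotypes overlapped for every marker of fibroblasts, dividing cells and endothelial cells. The part of these cells in the Utp18 difference was not tested.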

How the data were processed

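The authors deposited 1 log2 value per probe set and sample, made with Affymetrix Expression Console 4.0 per the submitters' processing notes. The sources used here do not give the background correction, summarisation or normalization, and the log2 scale was read from the values. There were 35556 probe sets. GEO's platform annotation gave a single gene symbol for 21789, more than 1 for 1621 and no entry for 12146. The brightest probe set of a gene was used, which left 19938 genes.

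Knockout and wild type (n = 4 each) were compared with limma 3.58.1 in R 4.3.3, genotype being the sole term, and p-values were adjusted by Benjamini-Hochberg over all genes. The procedure was tested on simulated data with independent noise for each gene and sample. Those data lack the shifts shared between genes that are described above. The nucleolar factors and the other gene lists were chosen with earlier results of these data known. The text names every nucleolar factor, the 2 genes of smallest p in each of 6 lists, the 5 tested neighbours of Utp18 on each side, and Hdac5. Any other gene named was chosen after its values were seen. The number of arrays limits the precision. Promoters are from RefSeq, build GRCm38.p6. Plots were drawn with matplotlib 3.10.9. Alternatives were quantile normalization, a trended and robust prior, removal of the dimmest 25% of genes, the mean of all probe sets, the replicate number as a block, and samples left out.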

Additional observations from a re-analysis of the deposited data

Results flagged for a closer look

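In 70 sets of 4 values (each of the 34 measured nucleolar factors and Hdac5 in each genotype), 1 sample stood far from the other 3 of its group, where chance gives about 1 in 20 sets. Hdac5 was 8.39 in knockout sample 4 and 8.31 to 8.32 in the other knockout samples, all below the wild type samples, which were 9.76 to 9.94.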

How the results depend on the processing

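None of the 33 factors other than Utp18 passed the adjusted threshold in limma under any of the 14 alternatives, and neither did any of the 142 other ribosome genes. The Utp18 difference, a description since Utp18 was chosen for it, was 0.74 to 0.97 under the 6 alternatives that did not leave out 1 sample and 0.80 to 1.05 with 1 sample left out. The number of factors called was 0 to 1 with 1 sample left out. The number of genes called was 44 with the trended and robust prior, 36 without dim genes, 30 with the replicate block, 5 with knockout sample 1 and wild type sample 4 both left out, and 5 to 20 with 1 sample left out, against 13. Factors at an unadjusted p under 0.05 numbered 1 to 4 with 1 sample left out. Other ribosome genes at that p numbered 9 with quantile normalization and 2 to 10 with 1 sample left out, against 5. The cause of these shifts was not tested.

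Signs of small differences turned for 16 of the 33 factors in at least 1 alternative, and 17 kept theirs. Leaving out knockout sample 1 and wild type sample 4, the samples most often highest and lowest, tends to lower a difference. With knockout sample 1 and wild type sample 4 both left out the differences were Utp15 -0.0642, Wdr75 -0.0274, Utp6 -0.0054, Tbl3 -0.0108, Wdr3 -0.0173, Utp14a -0.0092, Nol6 -0.0658, Noc4l -0.0035, Bysl -0.0408, Ddx10 -0.0256, Wdr12 -0.0041, Nop2 -0.0325, Ddx21 -0.0182. With quantile normalization they were Nol6 -0.0108, Wdr12 -0.0182, Nop2 -0.0179, Ddx21 -0.0121. With the mean of both probe sets the value was Wdr12 -0.0157. With 1 sample left out the lowest and highest values were Utp15 -0.0176 to 0.1124, Wdr75 0 to 0.1078, Tbl3 -0.0002 to 0.0734, Utp3 -0.0994 to 0.0085, Utp14a -0.0145 to 0.0833, Utp20 -0.0754 to 0.0214, Nol6 -0.0236 to 0.0443, Bysl -0.0196 to 0.1028, Ddx10 0 to 0.1373, Wdr12 -0.0156 to 0.0619, Nop2 -0.036 to 0.0673, Npm1 -0.081 to 0.05, Ddx21 -0.0126 to 0.0725.

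The sources used here do not say whether samples with the same number in both genotypes pair. The correlation of their deviations ran from -0.15 to 0.34, against -0.33 to 0.20 for samples with different numbers. The highest values were those of samples numbered 1 (0.34) and 4 (0.34) in both genotypes. Whether the numbers mark pairs cannot be told from these values. With the replicate block 5 of the 33 factors other than Utp18 had an unadjusted p under 0.05, and no other call on these factors changed.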
